A study of Mus musculus with 8 samples.

Results

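The *Hox* cluster genes were examined in RNA-seq libraries of C3H10T1/2 cells, a line of mouse mesenchymal stem cells (MSCs) used as a model of fat cell formation. They were taken as the rows whose gene symbol is Hoxa, Hoxb, Hoxc or Hoxd followed by a number, which gave 38 of the 41325 gene symbols listed in each library. Of the 39 genes that this naming covers in the mouse, *Hoxd4* is listed as 2 rows with a suffix and was left out. One of these rows had an RPKM of 0.0199 in shKDM4D cells at day 5 and 0 in the other libraries, and the other row was at 0 throughout.

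The control line (shControl, called WT in the labels) and the stable knockdown lines shMLL1, shNFIB and shKDM4D were sequenced on day 0 and on day 5 of adipogenic differentiation. This gave 8 libraries from 4 lines and 2 days, with 1 library per condition. The knockdown lines carry an shRNA against *Kdm4d* (a histone H3K9 demethylase), *Nfib* (a nuclear factor I transcription factor) or *Kmt2a* (MLL1, a histone H3K4 methyltransferase), and all of them were selected with puromycin. Day 0 cells were kept confluent for 2 days and not yet induced, while day 5 cells of all lines, shControl included, had received insulin, dexamethasone and isobutylmethylxanthine, then insulin, and then medium with serum alone. The knockdown lines were made from isolated puromycin-resistant clones, and it is not given which clone was sequenced, so that clone and knockdown cannot be told apart. For the control line, the vector, puromycin selection and cloning are not described, so these cannot be told apart from the knockdown either.

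Hox genes encode homeodomain transcription factors that lie in clusters, one after another in the same direction. The paralog number of a gene follows its place in the cluster. In the embryo, genes with low numbers are switched on toward the head and genes with high numbers toward the tail, and adult fibroblasts and mesenchymal cells keep a set of active Hox genes that depends on the site they came from. MLL1 and its partner menin are known for keeping Hox genes active once they have been switched on, with H3K4 methylation at their promoters, and the *Hoxa* cluster is the best known target in leukemia. The question addressed here was which Hox genes are read in these cells and how they compare between the lines and days.

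The targeted genes were examined first. *Kmt2a* had an RPKM (reads per kb of exon, scaled by the depth of the library) of 2.00 and 1.63 in shMLL1 cells on day 0 and day 5, against 5.17 and 5.27 in shControl, 6.33 and 3.74 in shNFIB and 4.68 and 4.89 in shKDM4D cells. *Nfib* had an RPKM of 9.92 and 17.0 in shControl cells, 8.10 and 10.3 in shMLL1, 2.31 and 3.38 in shNFIB and 11.5 and 23.0 in shKDM4D cells. Both were lowest in the line with the shRNA against them. *Kdm4d* was covered by between 1 and 15 reads in each library, with 1 read (day 0) and 4 reads (day 5) in shKDM4D cells against 2 and 13 reads in shControl cells, too few to detect a knockdown at day 0. The depth ran from 15842221 mapped reads in shNFIB cells at day 5 to 38202580 in shMLL1 cells at day 0, and both shMLL1 libraries were the deepest. Of 11 mesenchymal markers, all were read in every library, but *Thy1* was at 25.0 and 22.6 in shControl cells and at 11.8 and 11.1 in shMLL1 cells against at most 0.139 in shKDM4D and shNFIB cells. Summed RPKM was at most 0.147 for 3 endothelial markers, between 0.469 and 1.65 for 4 blood cell markers (nearly all *Cd68*) and between 0.615 and 1.85 for 4 epithelial markers, with *Epcam* at 0. The summed RPKM of 5 adipocyte markers (*Adipoq*, *Fabp4*, *Plin1*, *Cidec* and *Lpl*) was 741 in shControl cells at day 5, against 2.66 in shMLL1, 0.868 in shNFIB and 25.0 in shKDM4D cells, so that the day 5 libraries differ widely in these markers. Their part in the ratios given below was not tested.

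Nearly all Hox reads came from the *Hoxa* cluster. The 38 genes together received 19041 reads in the 8 libraries, of which 19014 fell on *Hoxa* genes, and the *Hoxa* cluster carried between 99.6% and 100% of the summed Hox RPKM in each library. The 27 genes of the other clusters shared the remaining 27 reads. Of these, 10 reads fell on *Hoxb*, 12 on *Hoxc* and 5 on *Hoxd* genes, 12 of the 27 genes were at 0 in all 8 libraries, and no gene had more than 4 reads in a library, a value reached by *Hoxb9* in shMLL1 cells at day 5. For the 12 genes without a read, a count of 0 allows up to 3 reads over the 8 libraries together, which is an RPKM of at most 0.0147 depending on the exon length of the gene. These limits cover counting error only.

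**Figure D1:**
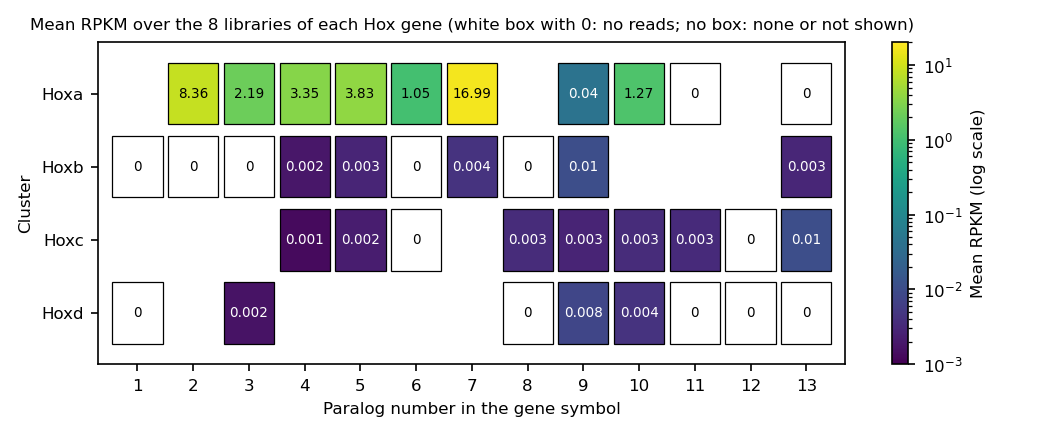
Mean RPKM over the 8 libraries of each Hox gene, by cluster (rows) and paralog number (columns), with the color on a log scale. The values of the *Hoxa* genes shown with reads run from 0.04 for *Hoxa9* to 16.99 for *Hoxa7* and all other genes lie below them, white boxes mark the genes without a read, and an empty place means that no gene was found there or that its value is not reported here.

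In the GRCm38 build, the *Hoxa* cluster lies on chromosome 6 on the minus strand, over 105 kb and with 11 genes, and its far end is at 52260880. *Hoxb* lies on chromosome 11 from 96194316 to 96368256 (10 genes), *Hoxc* on chromosome 15 from 102921103 to 103036852 (9 genes) and *Hoxd* on chromosome 2 from 74668310 to 74765142 (8 genes), all on the plus strand. All 38 genes are annotated as protein coding.

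Within *Hoxa*, most reads lay on the genes from *Hoxa2* to *Hoxa7*, and *Hoxa10* was read at a lower level. *Hoxa11* and *Hoxa13*, which pattern the distal limb and the urogenital tract, were at 0 in all 8 libraries, and *Hoxa9*, a gene of the posterior body axis and of blood stem cells, had only 48 reads in total. *Hoxa9* had an RPKM of 0.0336 and 0.0556 in shControl cells (day 0 and day 5), 0.0188 and 0.0752 in shMLL1, 0.0288 and 0.0792 in shNFIB and 0.0183 and 0.0415 in shKDM4D cells, on 2 to 16 reads. *Hoxa9* was thus nearly silent between *Hoxa7*, at 15.2 or more in every library, and *Hoxa10*, at 0.672 or more.

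*Hoxa7* (chromosome 6, 52214491 to 52221854), which patterns the thoracic skeleton, had the highest RPKM of all Hox genes in all 8 libraries. It had 19.7 and 17.6 in shControl cells (day 0 and day 5), 17.3 and 16.6 in shMLL1, 15.2 and 17.2 in shNFIB and 17.0 and 15.4 in shKDM4D cells. The highest and lowest of these values differ by 1.29-fold, the smallest range among the 7 genes with a mean RPKM over 1. The *Hoxaas3* RNA on the opposite strand shares 20.4% of the *Hoxa7* exon bases, and as it is not given whether the counting used the strand, reads of these bases cannot be assigned to one of the genes with certainty. *Hoxaas3* itself had an RPKM of 0.322 or less.

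*Hoxa2* (52162417 to 52164831), which patterns the hindbrain and the second pharyngeal arch, came next in all 8 libraries. It had 8.04 and 12.0 in shControl cells, 5.66 and 9.04 in shMLL1, 4.38 and 9.35 in shNFIB and 6.80 and 11.6 in shKDM4D cells. The 4 values at day 5 were all above the 4 values at day 0. In shNFIB cells at day 0, *Hoxa2* and the next gene, *Hoxa5*, did not differ beyond counting error (log2 ratio 0.25, 95% interval -0.10 to 0.60).

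*Hoxa5* (52201754 to 52204587), which is needed for lung development, and *Hoxa4* (52189671 to 52191753), which patterns the neck vertebrae, came next in every library. *Hoxa5* had 4.10 and 4.82 in shControl cells, 3.40 and 3.16 in shMLL1, 3.68 and 3.33 in shNFIB and 3.82 and 4.34 in shKDM4D cells. *Hoxa4* had 3.49 and 3.38 in shControl cells, 4.09 and 2.75 in shMLL1, 2.32 and 3.48 in shNFIB and 2.63 and 4.64 in shKDM4D cells. The order of this pair changed between libraries, and in shControl cells at day 0, in shKDM4D and shNFIB cells at day 5 and in shMLL1 cells at day 5 the pair did not differ beyond counting error.

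*Hoxa3* (52169062 to 52213336), which is needed for the thymus and parathyroid, had 1.98 and 2.74 in shControl cells, 1.53 and 2.09 in shMLL1, 1.71 and 2.39 in shNFIB and 1.89 and 3.22 in shKDM4D cells. It ranked below them in every library. Its annotated span reaches over *Hoxa4*, *Hoxa5* and *Hoxa6*, its exons share 25.4% of their bases with RNAs of the opposite strand and 8.01% with *Gm28308* on its own strand, and its value is the least certain of the expressed genes in this respect. *Gm28308* also shares 15.0% of the exon bases of *Hoxa2*, and *Gm29430* on the opposite strand shares 16.0% of those of *Hoxa4*. *Hoxa5*, *Hoxa6* and *Hoxa10* share no exon base with another annotated gene.

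*Hoxa10* (52231197 to 52240854), known for patterning the lumbar spine and the uterus, had 0.872 and 1.38 in shControl cells, 0.809 and 2.54 in shMLL1, 0.672 and 2.14 in shNFIB and 0.720 and 1.05 in shKDM4D cells. The values of shNFIB and shMLL1 cells at day 5 stand above the other 6. *Hoxa6* (52206288 to 52208722), a thoracic gene, had 0.816 and 1.07 in shControl cells, 0.839 and 1.50 in shMLL1, 1.29 and 0.433 in shNFIB and 0.937 and 1.48 in shKDM4D cells, on 6 to 50 reads. *Hoxa6* and *Hoxa10* did not differ beyond counting error at day 0 in shControl (log2 ratio of *Hoxa10* to *Hoxa6* 0.10, -0.64 to 0.90) and shMLL1 cells (of *Hoxa6* to *Hoxa10* 0.05, -0.61 to 0.67). The same held at day 5 in shControl (of *Hoxa10* to *Hoxa6* 0.37, -0.37 to 1.19) and shKDM4D cells (of *Hoxa6* to *Hoxa10* 0.50, -0.18 to 1.15). In shNFIB cells at day 0, *Hoxa6* stood above *Hoxa10* (0.94, 0.11 to 1.73).

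**Figure D2:**
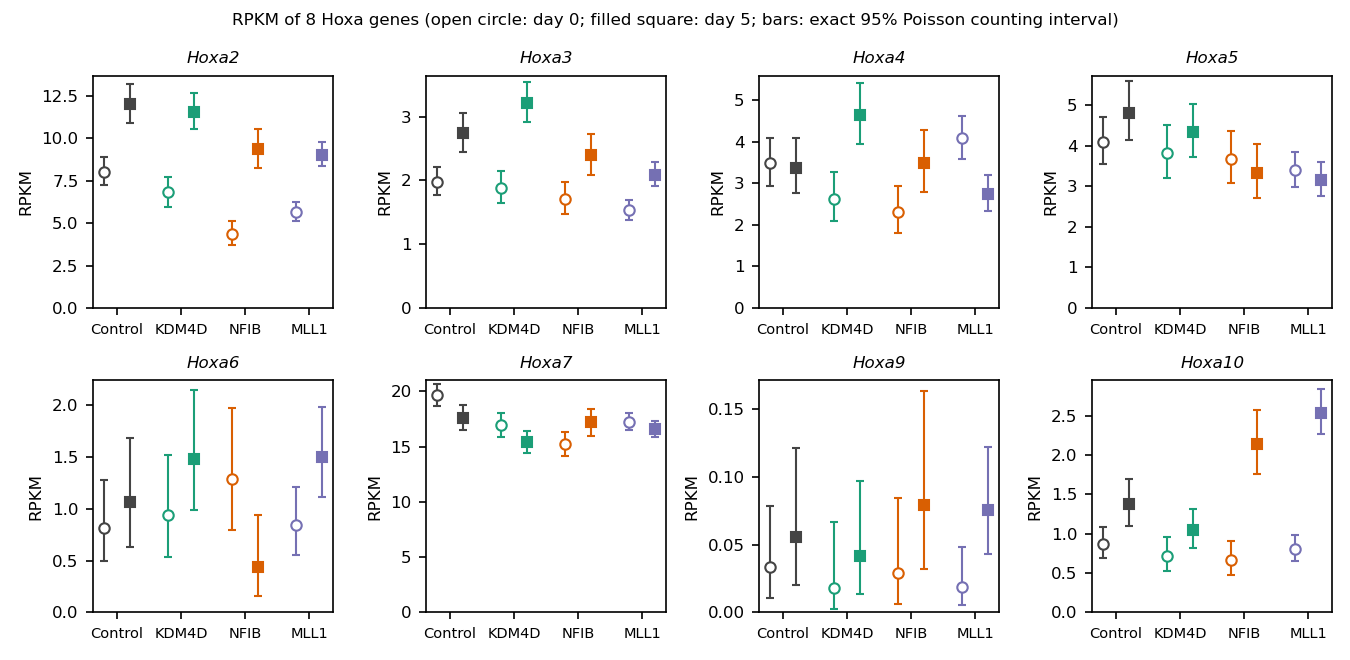
RPKM (vertical axis, from 0, a scale for each gene) of 8 *Hoxa* genes with reads in the 4 lines (horizontal axis), with open circles for day 0, filled squares for day 5 and bars for the exact 95% Poisson interval of the read count. *Hoxa2* is higher at day 5 than at day 0 in each line, *Hoxa10* stands highest in shNFIB (2.14) and shMLL1 (2.54) cells at day 5, and *Hoxa7* stays between 15.2 and 19.7.

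By position, genes with paralog numbers from 5 to 8 carried between 49.9% and 67.3% of the summed Hox RPKM, and genes from 1 to 4 between 30.2% and 47.4%. Genes from 9 to 13, nearly all of it *Hoxa10*, carried 2.41% (day 0) and 6.93% (day 5) in shMLL1 cells, 2.47% and 5.80% in shNFIB, 2.40% and 2.70% in shKDM4D and 2.32% and 3.32% in shControl cells. The share of the numbers from 1 to 4 was higher at day 5 than at day 0 in all 4 lines, with 38.1% against 35.0% in shMLL1, 40.9% against 30.2% in shNFIB, 47.4% against 35.1% in shKDM4D and 43.1% against 35.9% in shControl cells. In every library *Hoxa2* had the highest RPKM of the numbers from 1 to 4, and *Hoxa7* that of the numbers from 5 to 8. *Hoxa2* was higher at day 5 in each line, while *Hoxa4* was lower at day 5 in shControl and shMLL1 cells. The summed Hox RPKM was 39.8 and 43.9 in shControl cells, 34.3 and 38.7 in shMLL1, 30.1 and 39.4 in shNFIB and 34.7 and 42.5 in shKDM4D cells. At day 0 it was highest in shControl cells, and in each line it was higher at day 5 than at day 0. Each sum has no replicate. With bulk RNA, fewer cells that read a gene and less RNA of it per cell cannot be told apart.

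The upstream sequences of *Hoxa2*, *Hoxa9* and *Hoxa10* are shown because these genes are the one that came next to *Hoxa7*, the nearly silent one and the one with the largest day changes among the genes with a mean RPKM over 1. The 250 bases before each start are from the RefSeq promoter table of GRCm38 (minus strand, 5′ to 3′, last base next to the start), with every CG in capitals, and none of the windows overlaps an annotated exon. *Hoxa10* has a pair of starts in the table, and the windows of *Hoxa9* and of the inner *Hoxa10* start lie in introns of these genes in GENCODE.
*Hoxa2*, chr6:52164832-52165081: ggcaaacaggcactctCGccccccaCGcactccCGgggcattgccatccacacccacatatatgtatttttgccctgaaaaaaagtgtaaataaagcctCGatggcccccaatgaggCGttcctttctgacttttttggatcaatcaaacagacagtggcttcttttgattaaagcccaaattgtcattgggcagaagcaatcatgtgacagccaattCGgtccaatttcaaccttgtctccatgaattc
*Hoxa9*, chr6:52227371-52227620: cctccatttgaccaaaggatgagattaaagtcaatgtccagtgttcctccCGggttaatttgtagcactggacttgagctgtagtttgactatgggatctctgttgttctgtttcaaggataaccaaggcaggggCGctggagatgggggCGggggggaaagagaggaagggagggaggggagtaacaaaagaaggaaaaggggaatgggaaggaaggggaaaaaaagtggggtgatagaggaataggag
*Hoxa10*, inner start, chr6:52234940-52235189: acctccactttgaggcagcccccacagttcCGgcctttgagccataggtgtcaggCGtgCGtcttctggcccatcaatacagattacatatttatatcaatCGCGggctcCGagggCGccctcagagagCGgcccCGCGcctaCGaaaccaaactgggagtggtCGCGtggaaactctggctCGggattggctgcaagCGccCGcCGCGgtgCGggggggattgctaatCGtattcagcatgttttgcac
*Hoxa10*, outer start, chr6:52240855-52241104: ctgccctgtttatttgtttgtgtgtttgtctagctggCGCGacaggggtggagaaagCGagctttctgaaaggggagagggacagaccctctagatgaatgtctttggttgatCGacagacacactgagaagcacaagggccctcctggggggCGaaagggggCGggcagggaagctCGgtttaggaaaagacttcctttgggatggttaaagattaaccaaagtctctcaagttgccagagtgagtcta
The upstream bases hold 6 CG in *Hoxa2*, 3 in *Hoxa9*, 20 at the inner *Hoxa10* start and 7 at the outer one. The table held 23 promoters of 21 of the 38 genes. Counted over 300 bases (250 before and 50 after the start), these had a median of 15 CG, against 7 over all 32851 promoters of the table. The 7 promoters of genes with a mean RPKM over 1 had a median of 20 CG (9 to 29), and the 16 promoters of the other Hox genes had a median of 14.5 (4 to 45). The former hold the pair of *Hoxa10* starts and no promoter of *Hoxa4*, which is not in the table. The highest number, 45, was at *Hoxa13*, which had no read. The sequence TTGGC, one side of the known palindromic NFI site, was found on either strand in 15 of the 23 promoters and in 46.7% of all promoters, and TATAAA in 3 of the 23 and in 13.6% of all. The inner *Hoxa10* promoter holds 2 TTGGC and 1 TATAAA, *Hoxa2* holds 1 TTGGC and no TATAAA, and *Hoxa9* and the outer *Hoxa10* promoter hold neither. A match is a description of the letters and not a bound site.

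For the comparisons, a gene was called when its RPKM differed by more than 2-fold, among the 10586 genes with a mean RPKM over 1 in the 8 libraries. Of the 38 Hox genes, 7 passed this minimum (*Hoxa2* to *Hoxa7* and *Hoxa10*) and 31 did not. *Hoxa6* was just inside it with a mean of 1.05, and without its highest library (shMLL1 at day 5) its mean was 0.980. Its ratios that use this library thus describe a gene that passed only with it. *Hoxa10*, with a mean of 1.27, passed only through the shNFIB and shMLL1 libraries of day 5, as its mean over the other 6 libraries was 0.916. Its higher calls between the days in these lines and its ratios to shControl and shKDM4D cells at day 5 there are thus a description of the genes that passed. The counts below are given for the 7 genes as such. The 95% intervals of log2 ratios cover counting error only, and with 1 library per condition no p-value can be given for a single line.

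Without induction, none of the 7 genes differed by more than 2-fold between a knockdown line and shControl cells. In shMLL1 cells 0 were lower and 0 higher, where 5.91% of all genes tested were lower and 0.888% higher. In shKDM4D cells 0 were lower and 0 higher (2.58% and 1.16% of all genes), as in shNFIB cells (4.46% and 1.73%). With 7 genes and shares this small, the counts of 0 do not set the Hox genes apart from other genes. The median log2 ratio of the 7 genes was -0.19 in shMLL1 cells (-0.06 over all genes), -0.21 in shKDM4D cells (0.00 over all genes) and -0.37 in shNFIB cells (0.03 over all genes). On each day, the 3 comparisons share the shControl library.

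In shMLL1 cells at day 0, the intervals of *Hoxa2* (log2 ratio -0.51, interval -0.71 to -0.30), *Hoxa3* (-0.37, -0.59 to -0.15) and *Hoxa7* (-0.19, -0.29 to -0.09) lay below 0. How many of all genes tested had such an interval, here or in the other comparisons, was not counted. The intervals therefore do not set the Hox genes apart. With quantile normalization *Hoxa3* came to -0.13, outside its interval. *Hoxa7* came to -0.095 with median-of-ratios scaling, and *Hoxa2* to -0.41 with either scaling. *Hoxa4* had a ratio of 0.23 (-0.07 to 0.53) and *Hoxa10* one of -0.11 (-0.55 to 0.34), so for both a change in either direction was within counting error, and the sign of the latter turned with quantile normalization (0.18). *Hoxa2*, *Hoxa4* and *Hoxa7* were the genes with an interval below 0 in shNFIB cells, and the largest difference of any of the 7 genes at day 0 was that of *Hoxa2* in shNFIB cells, with a log2 ratio of -0.88 (-1.16 to -0.60) and 145 reads against 380. It was -0.59 (-1.02 to -0.17) for *Hoxa4* and -0.37 (-0.50 to -0.25) for *Hoxa7* there. In shKDM4D cells, *Hoxa4* had a log2 ratio of -0.40 (-0.81 to -0.01), *Hoxa2* one of -0.24 (-0.48 to -0.0019) and *Hoxa7* one of -0.21 (-0.33 to -0.10), and the intervals of the first 2 only just exclude 0.

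At day 5, 1 call was made. In shNFIB cells 1 gene was lower and 0 higher (4.24% and 4.22% of all genes), in shMLL1 cells 0 and 0 (2.71% and 3.99%), and in shKDM4D cells 0 and 0 (2.96% and 0.973%). The gene was *Hoxa6*, with 6 reads in shNFIB cells against 18 in shControl cells and a log2 ratio of -1.30, whose interval from -2.92 to 0.10 includes 0. The median log2 ratio was -0.30 in shMLL1 cells (0.07 over all genes), -0.20 in shNFIB cells (0.10) and -0.05 in shKDM4D cells (0.01).

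The 7 genes did not move together at day 5. In shMLL1 cells, *Hoxa5* (-0.61, -0.90 to -0.32), *Hoxa2* (-0.41, -0.59 to -0.23) and *Hoxa3* (-0.39, -0.60 to -0.18) had intervals below 0, while *Hoxa10* had a log2 ratio of 0.89 (0.54 to 1.24), on 317 reads against 87. In shNFIB cells, *Hoxa5* (-0.53, -0.91 to -0.17) and *Hoxa2* (-0.36, -0.59 to -0.13) were below 0 and *Hoxa10* was again above 0 at 0.64 (0.22 to 1.06). In shKDM4D cells the values were 0.46 (0.10 to 0.83) for *Hoxa4*, 0.23 (0.01 to 0.44) for *Hoxa3* and -0.19 (-0.32 to -0.06) for *Hoxa7*, and *Hoxa10* was at -0.39 (-0.86 to 0.07). *Hoxa10* stayed within 2-fold of shControl cells in shMLL1 and in shNFIB cells. As it passed the minimum only through these libraries, its higher values there describe a gene chosen by them and do not set it apart.

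**Figure D3:**
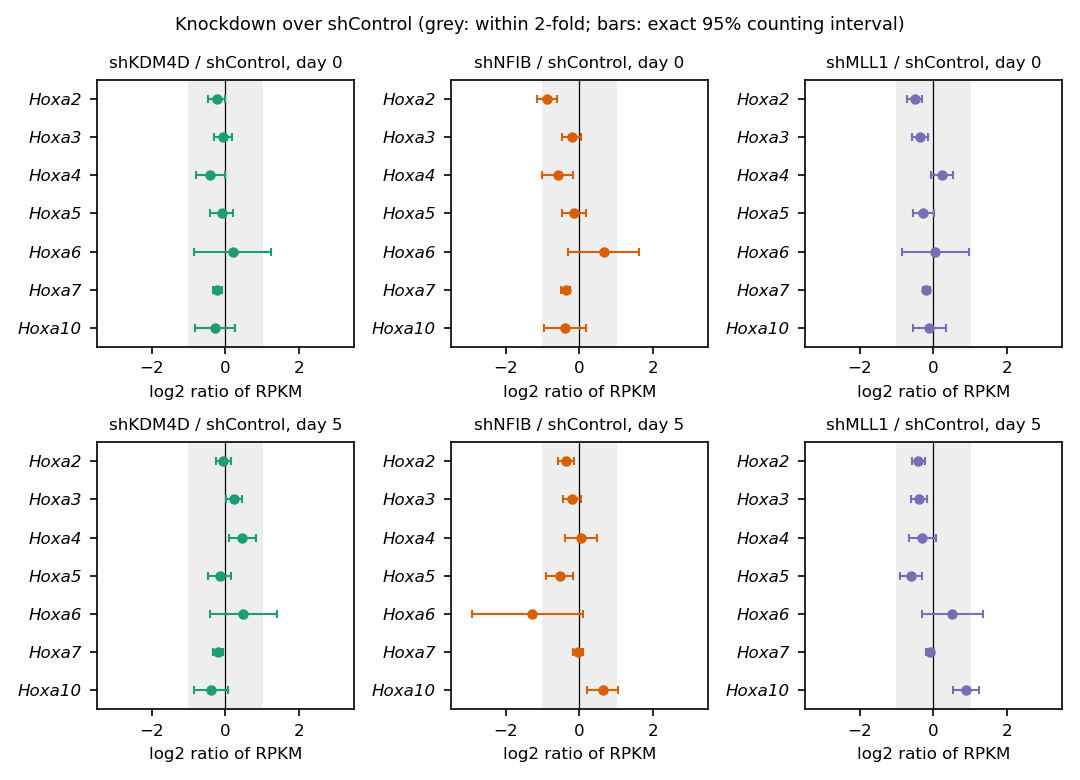
The log2 ratio of RPKM of each knockdown line to shControl cells (horizontal axis) for the 7 genes with a mean RPKM over 1 (vertical axis), at day 0 (upper row) and day 5 (lower row), with exact 95% counting intervals and the 2-fold band in grey. Only *Hoxa6* in shNFIB cells at day 5 lies outside the band, at -1.30, and *Hoxa10* lies at 0.64 and 0.89 in shNFIB and shMLL1 cells at day 5.

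The knockdown lines were also compared with each other on the day 5 libraries, without the shControl library. *Hoxa10* was lower in shKDM4D cells than in shMLL1 cells by a log2 ratio of -1.28 (-1.67 to -0.91) and than in shNFIB cells by -1.03 (-1.48 to -0.60). As *Hoxa10* passed the minimum only through the shNFIB and shMLL1 libraries of day 5, these ratios describe a gene chosen by them. *Hoxa4* and *Hoxa3* went the other way, with log2 ratios of shKDM4D to shMLL1 cells of 0.76 (0.43 to 1.08) and 0.62 (0.43 to 0.81), as did *Hoxa5* with 0.46 (0.17 to 0.75) and *Hoxa2* with 0.36 (0.18 to 0.53). The same 4 genes had intervals above 0 for shKDM4D against shNFIB cells, with ratios from 0.31 to 0.43. The largest differences were those of *Hoxa6*, which was low in shNFIB cells, with a ratio of shKDM4D to shNFIB cells of 1.77 (0.47 to 3.34) and of shNFIB to shMLL1 cells of -1.79 (-3.30 to -0.57), on 6 reads in shNFIB cells. The latter ratio uses the shMLL1 library of day 5, without which *Hoxa6* did not pass the minimum. At day 0, the ratio of shKDM4D to shMLL1 cells for *Hoxa4* had the opposite sign to that at day 5, at -0.64 (-1.01 to -0.27).

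Between day 0 and day 5, calls were made only in shNFIB and shMLL1 cells. In the control 0 of the 7 genes were lower and 0 higher (8.01% and 10.4% of all genes), and in shKDM4D cells 0 and 0 (7.75% and 10.2%). In shNFIB cells 1 gene was lower and 2 were higher (4.46% and 9.86%), and in shMLL1 cells 0 were lower and 1 was higher (6.5% and 17.4%). *Hoxa10* is among the higher genes in both lines, and with the minimum set on the mean of the 6 libraries other than shNFIB and shMLL1 at day 5 it left the count, with 1 gene higher in shNFIB and 0 in shMLL1 cells (8.95% and 16.4% of all genes). Other scalings move the day change of all genes in these lines. Its median was 0.07 in shNFIB cells and 0.13 in shMLL1 cells, and quantile normalization shifted it by -0.12 and -0.24 and median-of-ratios scaling by -0.11 and -0.21. In shNFIB cells the calls over all genes went from 472 lower and 1044 higher to 686 and 795 with quantile normalization. In shMLL1 cells they went from 688 lower and 1847 higher to 1188 and 1191 with quantile normalization and to 1092 and 1392 with median-of-ratios scaling. The median log2 ratio of the 7 genes was 0.66 in shKDM4D cells (0.01 over all genes), 0.48 in shNFIB (0.07), 0.38 in shControl (0.01) and 0.45 in shMLL1 cells (0.13), and the last turned to -0.11 with quantile normalization, as did the median of all genes. The other medians shrank under quantile normalization to 0.29 in shKDM4D, 0.19 in shNFIB and 0.18 in shControl cells.

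*Hoxa10* rose in shNFIB cells, from 41 to 111 reads (log2 ratio 1.67, 1.14 to 2.23), and in shMLL1 cells, from 101 to 317 reads (1.65, 1.33 to 1.99). It had a log2 ratio of 0.66 (0.20 to 1.12) in shControl cells and of 0.54 (-0.01 to 1.10) in shKDM4D cells. The difference of the day changes between shMLL1 and shControl cells was 1.00 on the log2 scale (interval 0.45 to 1.54) and that between shNFIB and shControl cells was 1.02 (0.33 to 1.70). Both use the day 5 libraries through which *Hoxa10* passed the minimum, so they are a description and no support for a larger rise there. Under quantile normalization the ratios were 1.23 in shNFIB and 1.00 in shMLL1 cells, the latter just under the 2-fold limit, and 0.30 and 0.10 in shControl and shKDM4D cells. *Hoxa9*, next to it, went from 4 to 16 reads in shMLL1 cells and from 3 to 7 reads in shNFIB cells, with log2 ratios of 2.00 (0.37 to 4.04) and 1.46 (-0.67 to 4.04), wide intervals on so few reads.

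*Hoxa2* rose in shNFIB cells with a log2 ratio of 1.10 (0.80 to 1.40), and with one of 0.99 under median-of-ratios scaling it fell just short of the call. In the other lines its interval lay above 0 too, at 0.58 (0.37 to 0.78) in shControl cells, 0.77 (0.53 to 1.00) in shKDM4D cells and 0.68 (0.49 to 0.86) in shMLL1 cells. *Hoxa3* had ratios of 0.77 (0.53 to 1.01) in shKDM4D, 0.48 (0.20 to 0.77) in shNFIB, 0.47 (0.24 to 0.70) in shControl and 0.45 (0.25 to 0.65) in shMLL1 cells. The last of these turned to -0.11 with quantile normalization. Both genes thus had intervals above 0 in 4 of 4 lines on the deposited scale.

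*Hoxa4* did not go one way. Its day change was 0.82 (0.43 to 1.22) in shKDM4D cells, from 82 to 160 reads, and 0.59 (0.12 to 1.06) in shNFIB cells. In shControl cells it was -0.05 (-0.42 to 0.33) and in shMLL1 cells -0.57 (-0.86 to -0.28), from 249 to 167 reads. The day change in shMLL1 cells differed from that in shControl cells by -0.53 (-0.99 to -0.07) and from that in shKDM4D cells by -1.39 (-1.87 to -0.92).

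*Hoxa5* and *Hoxa7* had small day changes on the deposited scale. *Hoxa5* had day changes of -0.11 in shMLL1, -0.15 in shNFIB, 0.18 in shKDM4D and 0.23 in shControl cells, all with intervals that include 0. With quantile normalization that in shMLL1 cells was -0.46, outside the interval on the deposited scale. *Hoxa7* had 0.18 (0.03 to 0.32) in shNFIB, -0.06 (-0.15 to 0.04) in shMLL1, -0.14 (-0.27 to -0.01) in shKDM4D and -0.16 (-0.28 to -0.04) in shControl cells. *Hoxa6* fell in shNFIB cells, from 21 to 6 reads (-1.57, -3.17 to -0.21), and had 0.84 (0.14 to 1.56) in shMLL1 cells, from 28 to 50 reads. The latter ratio uses the shMLL1 library of day 5, without which *Hoxa6* did not pass the minimum. As only 6 to 50 reads stand behind each *Hoxa6* value, its ratios are the least precise of the 7 genes.

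Averaged over the 4 lines, *Hoxa2*, *Hoxa3* and *Hoxa10* were higher at day 5. The day change was tested across all 10586 genes with limma on log2(RPKM + 0.1), with line as a block, so that the spread is that of the day change among the lines, which carry different knockdowns and are not replicates of a condition. Of the 7 genes, 3 were higher and 0 lower at a Benjamini-Hochberg adjusted p under 0.05, where 28.1% of all genes were higher and 22.1% lower. *Hoxa2* had a mean change of 0.77 ± 0.11 (SE, adjusted p = 0.0028 by limma), *Hoxa3* one of 0.52 ± 0.12 (adjusted p = 0.015) and *Hoxa10* one of 1.04 ± 0.26 (adjusted p = 0.018), and each was higher in 4 of 4 lines. *Hoxa10* entered this test only through the shNFIB and shMLL1 libraries of day 5, with a mean RPKM of 0.916 without them. Its adjusted p values and its place among the 3 genes are therefore no support for a day change. With quantile normalization *Hoxa2* alone passed, while *Hoxa3* had 0.25 (adjusted p = 0.20 by limma) and *Hoxa10* 0.61 (adjusted p = 0.071). *Hoxa10* also did not pass without the shMLL1 line (adjusted p = 0.060 by limma) or without the shNFIB line (0.069), and *Hoxa3* did not pass without the shKDM4D line (0.075). *Hoxa4*, *Hoxa5*, *Hoxa6* and *Hoxa7* had mean changes between -0.05 and 0.19 that did not pass.

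**Figure D4:**
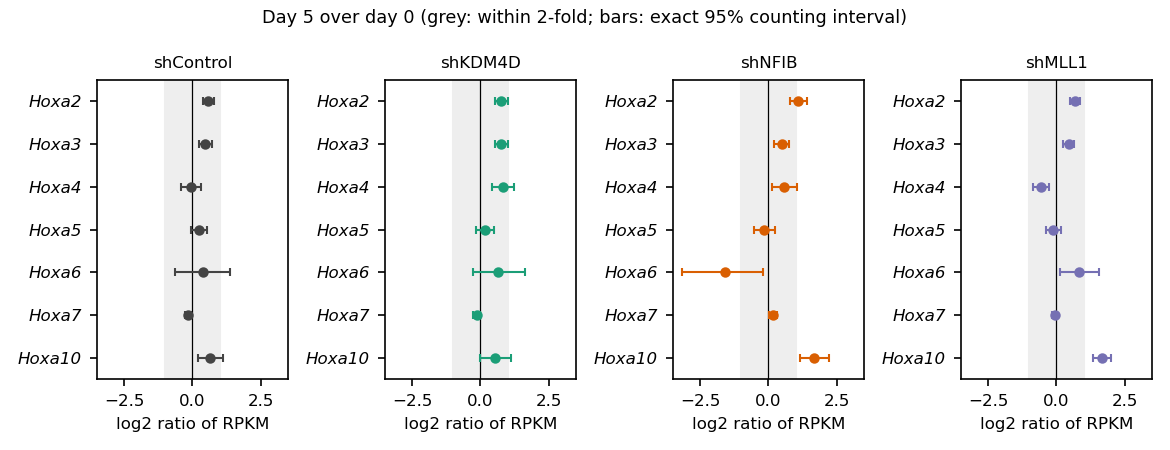
The log2 ratio of RPKM at day 5 to day 0 (horizontal axis) for the 7 genes with a mean RPKM over 1 (vertical axis) in each line, with exact 95% counting intervals and the 2-fold band in grey. *Hoxa10* lies beyond the band in shNFIB (1.67) and shMLL1 (1.65) cells, *Hoxa4* lies on opposite sides of 0 in shKDM4D (0.82) and shMLL1 (-0.57) cells, and *Hoxa6* lies below the band in shNFIB cells (-1.57).

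Of 15 listed RNA genes of the clusters, the 4 with reads all lie in *Hoxa*. The other 11 were at 0 in all libraries, among them *Hotair* in *Hoxc*, *Hottip* at the far end of *Hoxa* and the miRNA genes. Libraries of this kind do not capture short RNAs, so a 0 says nothing of the mature miRNAs. *Hotairm1*, on the opposite strand at the *Hoxa2* end of the cluster, had an RPKM of 0.989 and 1.77 in shControl cells (day 0 and day 5), 1.05 and 2.64 in shMLL1, 1.46 and 2.34 in shNFIB and 0.499 and 1.13 in shKDM4D cells. It was higher at day 5 in each line, and the 2-fold limit was passed in shKDM4D (1.18, 0.07 to 2.40) and shMLL1 cells (1.33, 0.80 to 1.89). *Hotairm1* was the only RNA gene of the list with a mean RPKM over 1. *Hoxaas2*, antisense in the *Hoxa3* region, had 0.961 and 1.72 in shControl cells, 0.312 and 0.952 in shMLL1, 0.510 and 1.07 in shNFIB and 0.640 and 1.83 in shKDM4D cells. In shMLL1 cells, its log2 ratio to shControl was -1.62 (-2.20 to -1.07) on day 0 and -0.86 (-1.24 to -0.47) on day 5, a larger difference at day 0 than that of any Hox gene with a mean RPKM over 1, although its mean RPKM was just under the minimum for a call.

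Hox proteins bind DNA together with TALE homeodomain proteins of the PBX, MEIS and PKNOX families. Of the 9 partner genes, 7 had a mean RPKM over 1. *Meis2* had 7.13 to 12.9, while *Pbx4* and *Pknox2* stayed at or below 0.305. At day 0, 0 of the 7 were called in any knockdown line. *Meis3* rose between day 0 and day 5 in all 4 lines, from 1.74 to 7.13 in shMLL1 (log2 ratio 2.03, 1.81 to 2.26), from 4.39 to 13.5 in shKDM4D (1.62, 1.42 to 1.82), from 2.96 to 7.52 in shControl (1.35, 1.12 to 1.57) and from 4.07 to 10.2 in shNFIB cells (1.33, 1.10 to 1.55). *Pbx3* fell in shControl cells, from 2.93 to 1.18 (-1.31, -1.60 to -1.04), and was higher in shNFIB than in shControl cells at day 5 (1.32, 1.03 to 1.63). These were the calls among the partners.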

How the data were processed

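RNA was sequenced once for each of 4 lines on 2 days. The deposited files give, per gene symbol, the RPKM that the authors computed in CLC Genomics Workbench 11.0.1 from reads mapped to GRCm38 (mm10). The annotation and strand setting of the counting are not given in the sources used here. The symbols were matched to GENCODE M21 of GRCm38, which gave an exon length for 40829 of 41325. Multiplied by exon length, between 96.2% and 96.6% of values between 1 and 1000 reads were within 0.02 of a whole read, and those of all 38 Hox genes were, which gave the reads and depths. Ratios used RPKM with nothing added. A call needed a ratio over 2 or under 0.5 and a mean RPKM over 1 in the 8 libraries. The exact 95% intervals of ratios are Clopper-Pearson intervals on the summed reads and were tested on simulated data. Differences of day changes have normal intervals on the log scale, which were not tested in this way. Both kinds of interval cover counting error only. There are 10 comparisons with shControl or between days, and a limma 3.58.1 fit of log2(RPKM + 0.1) on day with line as a block (3 residual degrees of freedom, Benjamini-Hochberg adjustment over all genes), added after the data were seen and tested on simulated data. The genes, lists and rules were chosen with earlier results of these data known. Hox genes with a mean RPKM over 1 are given with their values and the others by reads or range, except *Hoxa9*, added after its values were seen. A few genes are not reported here. Other genes named come from lists (Hox partners, RNA genes of the clusters, flanking genes, Hox regulators, and mesenchymal, adipocyte, endothelial, blood cell and epithelial markers). Alternatives were no minimum, an RPKM over 1 in at least 1 library, 0.1 added to each RPKM, quantile normalization, median-of-ratios scaling, and an interval that excludes a ratio of 1. Python 3.11.15, pandas 2.3.3 and scipy 1.17.1 were used.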

Additional observations from a re-analysis of the deposited data

Results flagged for a closer look

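For *Hoxa3*, *Hoxa4*, *Hoxa6* and *Hoxa7*, among the 7 Hox genes with a mean RPKM over 1, log2 ratios of the same contrast lay on opposite sides of 0 in different lines or days, with both counting intervals excluding 0. How many of all genes met the same rule was not counted, so it does not set the Hox genes apart. The contrasts were day 5 to day 0 between lines, and knockdown to shControl cells between days and between lines of the same day. With 1 library per condition, none of these differences was tested against replicate spread. *Hoxa3* had a ratio to shControl cells at day 5 of 0.23 in shKDM4D cells, with an interval that reached 0.01, and of -0.39 in shMLL1 cells, and these ratios share the shControl library. *Hoxa4* had a day 5 to day 0 ratio of 0.82 in shKDM4D and 0.59 in shNFIB cells against -0.57 in shMLL1 cells. Its ratio of shKDM4D to shControl cells was -0.40 on day 0, with an interval that reached -0.01, and 0.46 on day 5. *Hoxa6*, on 6 to 50 reads, had a day ratio of -1.57 in shNFIB and 0.84 in shMLL1 cells, and the latter shrank to 0.09 with quantile normalization. Without the shMLL1 library of day 5 its mean RPKM was 0.980. The ratio in shMLL1 cells thus describes a gene that passed the minimum only with that library. *Hoxa7* had a day ratio of 0.18 in shNFIB cells against -0.16 in shControl and -0.14 in shKDM4D cells, all small next to the 2-fold limit.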

How the results depend on the processing

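No library could be left out of the ratios, as each condition has 1. In the limma fit of the day change over the 4 lines, with line as a block and added after the data were seen, 3 of 7 Hox genes were higher, as without the block, against 2 to 3 with 1 line left out and 1 with quantile normalization. Among the 3 is *Hoxa10*, which passed the minimum only through the shNFIB and shMLL1 libraries of day 5. Over all genes, 2971 were higher and 2339 lower in that fit, and 2374 and 3035 with quantile normalization and 2533 and 3008 with median-of-ratios scaling. Counts of called Hox genes did not change with 0.1 added to each RPKM or with the minimum of an RPKM over 1 in at least 1 library, and the same 7 genes pass that minimum. Without a minimum, genes with a few reads entered, and of the 11 to 16 Hox genes above 0 in either library between 0% and 31.3% were lower and between 0% and 46.2% higher, against 10.9% to 16.3% and 10.2% to 34.8% of all such genes. The share lower was furthest above that of all genes in shNFIB cells between the days (31.3% against 10.9%). Against shControl on day 0, 1 of 14 was then lower and 3 higher in shKDM4D cells (15.1% and 10.2% of all genes). In shNFIB cells 2 and 4 of 15 were (16.1% and 12.3%), and in shMLL1 cells 2 and 0 of 11 (16.0% and 13.3%). On day 5 these were 2 and 3 of 14 in shKDM4D cells (16.3% and 10.8%). In shNFIB cells they were 3 and 3 of 14 (16.0% and 16.2%), and in shMLL1 cells 1 and 3 of 14 (11.7% and 19.8%). Between the days, 2 of 13 were lower and 2 higher in shControl cells (14.6% and 25.0% of all genes). In shKDM4D cells 3 and 3 of 15 were (14.5% and 24.2%). In shNFIB cells 5 and 6 of 16 were (10.9% and 25.0%), and in shMLL1 cells 0 and 6 of 13 (11.8% and 34.8%). Asking that the interval exclude a ratio of 1 took away the *Hoxa6* call in shNFIB against shControl cells on day 5 (0 lower). Median-of-ratios scaling left 1 gene higher between the days in shNFIB cells, as *Hoxa2* came to 0.99, and quantile normalization left 0 in shMLL1 cells, as *Hoxa10* came to just under the limit (1.00 when rounded). Of 270 ratios of single genes under these scalings and with 0.1 added, 14 changed sign, the largest being *Hoxa9* between the days in shControl cells (0.73 to -0.21). Setting the minimum on the mean of 6 libraries, also added after the data were seen, left 1 gene higher between the days in shNFIB and 0 in shMLL1 cells. Of the 10 medians, 7 moved by 0.1 or more with quantile normalization and 2 with median-of-ratios scaling, and 1 changed sign, that of the day change in shMLL1 cells (0.45 to -0.11). Depth limits *Hoxa6* and *Hoxa9* most. Spread between cultures was not measured, so intervals that exclude 0 may still lie within it.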

Other observations

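Of 21 listed genes that flank the clusters, 14 had a mean RPKM over 1. *Evx1*, *Evx1os* and *Evx2*, which lie next to the *Hoxa13* and *Hoxd13* ends and act with the posterior Hox genes, were at 0 in all libraries. Flanking the silent *Hoxc* cluster, *Hnrnpa1* (an RNA-binding protein) had an RPKM of 142 to 367 and *Cbx5* (heterochromatin protein HP1 alpha) one of 21.1 to 66.7, both highest in shMLL1 cells on day 0, from where both fell by day 5 with log2 ratios of -1.09 (-1.11 to -1.07) and -1.02 (-1.05 to -0.99). *Calcoco1* on the other side of *Hoxc* rose between the days in shControl (1.37, 1.29 to 1.46), shKDM4D (1.48, 1.39 to 1.57) and shMLL1 cells (1.72, 1.63 to 1.80), and was lower in shNFIB than in shControl cells on day 5 (-1.29, -1.39 to -1.19). *Hibadh*, beyond the *Hoxa13* end, rose in shControl cells (1.22, 1.06 to 1.39). None of the 14 was called against shControl on day 0.

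Of 7 known regulators of Hox genes, *Cdx2* and *Cdx4* were at 0 in all libraries and *Cdx1* had at most 3 reads. *Men1* (menin) and *Psip1* (LEDGF), which bind MLL1, had an RPKM of 8.92 to 12.7 and of 34.5 to 99.8. *Psip1* fell between the days in shControl (-1.03, -1.08 to -0.97) and shKDM4D cells (-1.21, -1.26 to -1.15). *Cyp26b1*, which degrades retinoic acid, was lower in shKDM4D than in shControl cells on day 0 (-1.05, -1.52 to -0.59) and higher in shNFIB cells on day 5 (1.25, 0.91 to 1.60).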
